A study of Homo sapiens with 15 samples.

Results

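The methylomes described here are the 5 Recovery libraries of a 15-library whole-genome bisulfite series of HCT116, an established human colorectal carcinoma cell line. They are the libraries labelled as Recovery, and they comprise 3 clones and 2 bulk populations. All 5 came from cells with a doxycycline-inducible short hairpin RNA (shRNA) that were given 10 ng/mL doxycycline for 14 days and were then grown for 14 days without it, so that DNA was taken on day 28. The clones, Cl.3, Cl.6 and Cl.9, carried the hairpin against UHRF1 (shUHRF1), and each was a line grown from a single cell. The bulk populations, R1 and R2, carried the hairpin against DNMT1 (shDNMT1) and were not cloned. The hairpin's target, the cloning and the table in which the authors deposited the counts (Cl.3 with Cl.6, Cl.9 alone, R1 with R2) therefore changed together, and their parts in any difference cannot be told apart. The labels do not say how R1 and R2 were kept separate, so p-values measure only the spread between these samples.

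DNMT1 is the enzyme that copies CpG methylation onto the new strand after replication, and UHRF1 is the protein that recognises hemimethylated CpGs and brings DNMT1 to them. When maintenance is reduced, methylation is lost as cells divide, and once maintenance returns the level of a site depends on what was kept and on new methylation by DNMT3A and DNMT3B. In colorectal cancer cells the genome is divided into domains that are highly methylated (HMDs) and domains that are only partially methylated (PMDs), long late-replicating stretches in which isolated CpGs are poorly methylated.

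The methylation level (mC) of a CpG is the share of its reads that kept C after bisulfite treatment, and a gap is the mean mC of the 3 clones minus the mean of the 2 bulk populations, in percentage points. The sequences below surround, in 6 of the named promoters, the CpG with the greatest gap among those with 10 reads or more in every library (1 CpG in NOMO1 and 2 in ALG1L2), and they are shown so that the sites which separated clones from bulk cells can be read. The CpG itself is in capitals, all are the plus strand of hg38, and the promoter was taken from 1000 bp upstream to 100 bp downstream of a gene's 5' end.
GGT5, chr22:24245369-24245398: agcagagctggggcCGctcaactctctccc
GBP7, chr1:89176555-89176584: atgaagatagtaccCGttttgtttacatag
ALG1L2, chr3:130081716-130081745: aattgcttattgtaCGtcacgagatgaatg
NOMO1, chr16:14833223-14833252: cttaaagcgtttttCGtgtgtgtttttcgt
ENAH, chr1:225653878-225653907: atcccagcgtgctgCGccgatggaacgagt
GALNT3, chr2:165794579-165794608: cttcctcctcggttCGccaaaatgaagggg
At the GBP7 CpG, at position -560 from the 5' end, mC was 27.8%, 45.5% and 4.55% in Cl.3, Cl.6 and Cl.9 against 100% and 92.3% in R1 and R2. At the GGT5 CpG it was 30%, 0% and 35.3% against 93.8% and 90%. At the ENAH CpG, at position -750, the order was turned, with 100% in each clone against 43.8% and 42.1%. These CpGs were chosen for their gap, so that their values are a description. The GALNT3 CpG lay 66 bp downstream of the 5' end and gave 30%, 41.2% and 30.4% against 5% and 0%. The ALG1L2 CpG gave 93.8%, 36.4% and 10.5% against 100% and 92.3%, so that Cl.3 lay between R1 and R2, and the NOMO1 CpG gave 50%, 27.3% and 18.2% against 88.9% and 61.5%. Each of these CpGs was covered by 10 to 23 reads in every library. With 10 reads of which 5 are methylated, the 95% Wilson interval runs from 23.7% to 76.3%, and such intervals cover counting error only.

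The Recovery libraries held 353076075 (Cl.3) to 564465548 (Cl.9) reads at CpGs, with a median of 12 to 20 reads per CpG, and 82.1% to 87.6% of CpGs had 5 reads or more. Cl.9 was the deepest library. R1 and R2 were kept as separate samples, as labelled. Their counts differed slightly more than independent reads would (chi-square per CpG 1.03, p = 1.8372e-36, chi-square test, which covers counting error only), far less than in any other pair (3 to 11.7 per CpG). Read depth per chromosome relative to the library's median stayed close between clones and bulk cells, and the greatest departures were in Cl.6, at 1.07 against 0.998 on chromosome 5 and 1.12 against 1.05 on chromosome 3. The assay measured no RNA, so the knockdown and its reversal were not checked here, and the colon epithelium markers could be read only as promoter mC.

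At Recovery the clones were less methylated than the bulk populations, each clone by a different amount. Over 22581444 CpGs with at least 5 reads in all 5 libraries, mean mC was 68.6% in Cl.3, 66.7% in Cl.6 and 55.3% in Cl.9, against 74.1% in R1 and 74.2% in R2. Every clone lay below both bulk populations, and the clones spread over far more than R1 and R2 did (63.5% ± 7.15, SD, n = 3, against 74.1% ± 0.0353, SD, n = 2). The gap was -10.6 points (p = 0.2, exact permutation test, two-sided, the smallest p that the 10 ways to split 5 libraries into 3 and 2 can give). Without Cl.9 it was -6.53 points. In the Baseline libraries, which are cultures of the same populations kept free of doxycycline and taken on day 14, where the Recovery cultures were taken on day 28, the groups did not separate, with 75.7%, 76.5% and 73.4% in the clones against 75.2% and 75.3% in the bulk populations, a gap of -0.0603 points over 20309996 CpGs. At the end of the doxycycline treatment the order was the other way round, with 63.1%, 57.5% and 43.7% in the clones against 40.4% and 39.5%.

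Among single CpGs the clones had fewer highly methylated sites and more of intermediate and low level. CpGs above 80% mC made up 56.8%, 53.4% and 35.8% of the CpGs of Cl.3, Cl.6 and Cl.9, against 65.8% and 65.6% in R1 and R2. CpGs from 20% to 80% made up 25.4%, 27.9% and 39.1%, against 19.9% and 20.1%. CpGs below 20% made up 17.9%, 18.7% and 25.2%, against 14.3% in each bulk population. Of 21043397 CpGs read in the clones and the bulk cells at both stages, 29% had every clone below both bulk populations at Recovery and 1.52% had every clone above, whereas at Baseline these shares were 4.92% and 7.64%. With a gap of 30 points or more added, 2011555 CpGs (9.56%) were lower in the clones and 19971 (0.0949%) were higher, against 0.731% and 0.691% at Baseline. CpGs at 80% or more in both bulk populations and at 20% or less in all 3 clones numbered 1676, and the reverse 7. At Baseline these counts were 42 and 109.

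In each clone the difference from bulk cells was wider at sparse CpGs. At low-density CpGs, whose nearest CpG lies 20 bp or more away, mC was 64.2%, 62.2% and 49.1% in the clones against 71.4% and 71.5% in the bulk populations, a gap of -13 points over 13105325 CpGs. At high-density CpGs it was 74.6%, 72.8% and 64% against 77.8% and 77.9%, a gap of -7.36 points over 9476119 CpGs. The gap at low density exceeded that at high density in each clone, and the difference between them was -5.61 points (p = 0.2, exact two-sided permutation, the smallest this design can give). Solo-WCGW CpGs, which have no other CpG within 35 bp and A or T on either side, are known to lose methylation with cell division in PMDs. They stood at 50.5%, 49.2% and 35% in the clones against 59.9% and 60% in the bulk populations, a gap of -15 points over 3110442 CpGs, where at Baseline the gap was -0.333 points. Other CpGs without a neighbour within 35 bp gave -11.9 points.

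**Figure D1:**
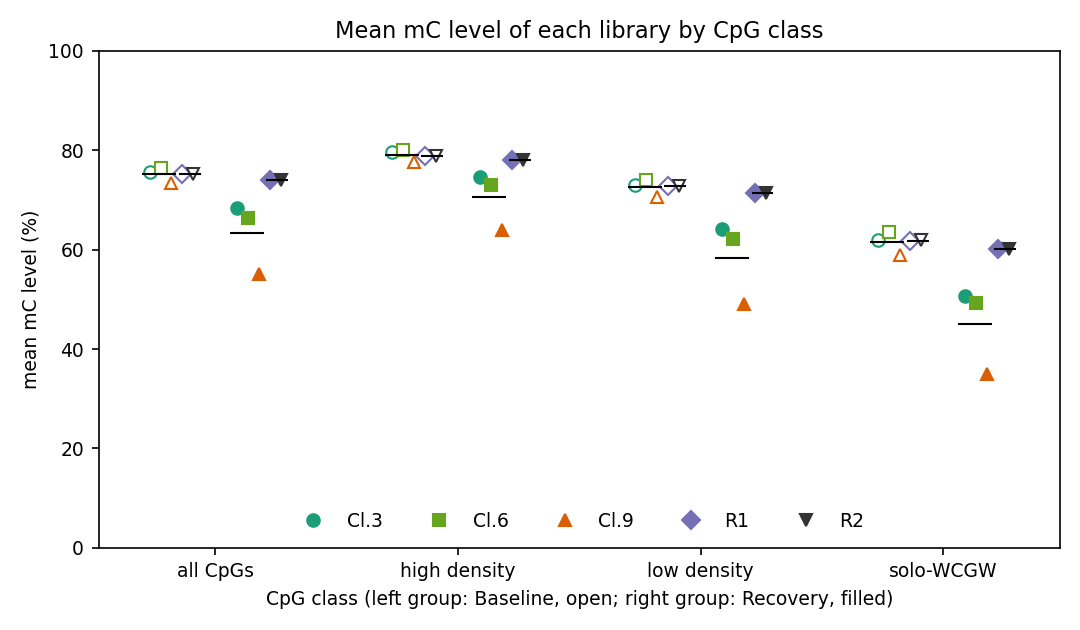
Mean mC (%, vertical axis) of each library in 4 CpG classes, with Baseline as open and Recovery as filled symbols and short lines at the means of the 3 clones and the 2 bulk populations, over CpGs with 5 reads or more in all 15 libraries. At Baseline the 5 populations lie together in each class, and at Recovery the clones lie below R1 and R2, with Cl.9 at 35% of solo-WCGW CpGs against 60% and 60.1% in the bulk populations.

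The gap did not widen steadily with spacing. It was -5.65 points where the nearest CpG was 2 to 9 bp away, -9.82 at 10 to 19 bp, -12.9 at 20 to 34 bp, -13.8 at 35 to 59 bp, -13.3 at 60 to 99 bp and -12 at 100 bp or more. It was widest at intermediate spacing, where mean bulk mC was 73% against 65.8% in the sparsest class. At Baseline the gap in the same bins lay between -0.374 and 0.38 points. The share of low-density CpGs was 76.7% among the CpGs that were lower in the clones by 30 points or more, 67.2% among the few that were higher by that much and 59.4% among all those compared. At Baseline it was 74.6% among the few that were lower and 71.6% among the few that were higher by that much.

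**Figure D2:**
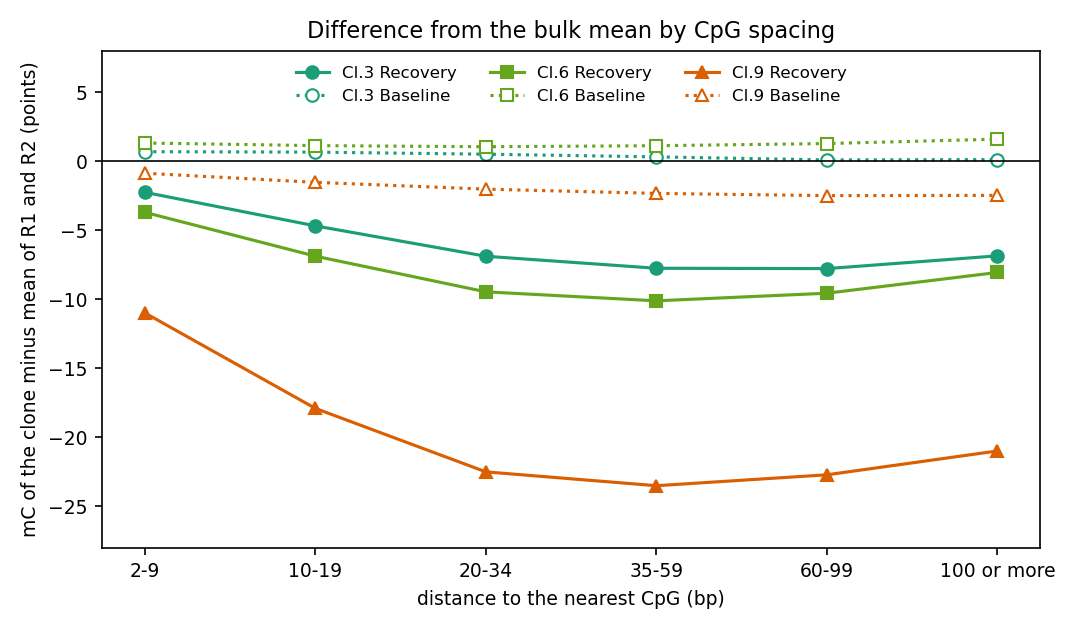
mC of each clone minus the mean of R1 and R2 (points, vertical axis) by distance to the nearest CpG (bp, horizontal axis), with Recovery as solid and Baseline as dotted lines. At Recovery all 3 clones lie below 0 in each bin, Cl.9 lowest by far, with the greatest departures between 35 and 99 bp, whereas the Baseline lines lie between -2.49 and 1.60 points.

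The gap by density depended on the domain. In bases that both bulk Recovery lists called HMD, mC was 87.2%, 85.8% and 75.3% in the clones against 91.8% and 91.9% in R1 and R2, a gap of -9.1 points. There, low-density CpGs gave -12 points and high-density CpGs -5.18 points. In bases that both bulk lists called PMD, mC was 47%, 44.1% and 30% against 54.8% in each bulk population, a gap of -14.4 points, and the 2 density classes gave -14.4 and -14.5 points. In PMDs the greater departure was at low-density CpGs in Cl.3 (-8.35 against -6.68 points) and at high-density CpGs in Cl.9 (-24.1 against -26.1 points), while Cl.6 gave -10.7 and -10.6 points. On each of the 23 chromosomes read (1 to 22 and X), mean mC was lower in every clone than in both bulk populations, with gaps from -12.4 points on chromosome 20 to -8.62 points on chromosome 6.

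Over 100 kb windows the lower methylation of the clones covered nearly the whole genome. Of 28377 windows with at least 5 CpGs and 50 reads in each library, 25477 (89.8%) had every clone below both bulk populations and 43 (0.152%) had every clone above. The median gap was -10.7 points, against 0.0645 points at Baseline, where 4.88% of windows had every clone below and 4.49% every clone above. edgeR's quasi-likelihood test on methylated and unmethylated reads called 0 windows lower (0%) and 0 higher (0%) at a Benjamini-Hochberg adjusted p under 0.05. The smallest adjusted p was 0.19, although 7011 windows had an unadjusted p under 0.05, all of them lower. limma on the log2 ratio of methylated to unmethylated reads called 1 window, and edgeR on all 15 libraries called 5. Without Cl.9 edgeR called 22571 windows lower and 253 higher, so the count rested on that clone.

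The change of the gap between Baseline and Recovery was tested separately, in a fit of all 15 libraries with the population as a block. The gap fell in 25222 of 28348 windows (89%) and rose in 1 (0.00353%). Without the block 0 windows were called in either direction, 1927 falling and 1 rising at an unadjusted p under 0.05. Left out with all their stages, R1 or R2 also brought the count to 0, and without Cl.6 it was 12858.

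Cl.9 had the lowest mC of all 5 libraries in 97.7% of windows, and the order Cl.3 above Cl.6 above Cl.9 held in 80.3%. Relative to the bulk mean the median window stood at -5.34 points in Cl.3, -6.35 in Cl.6 and -19.8 in Cl.9. R1 and R2 lay within 1 point of each other in 77.4% of windows. Cl.9 stood 40 points or more below the bulk mean in 423 windows spread over 23 chromosomes, and no window did so in Cl.3 or Cl.6. In 220 of the 423 (52%) both other clones lay at most 10 points below the bulk mean. At Baseline the median difference of Cl.9 in these windows was -10.8 points, and 38 of them were already 20 points or more below.

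**Figure D3:**
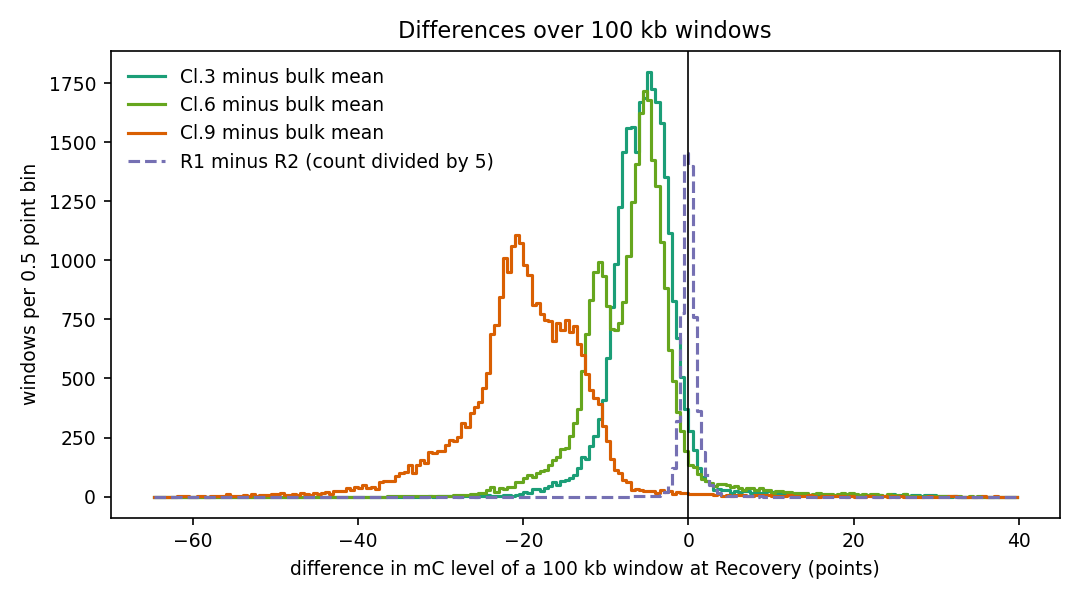
Numbers of 100 kb windows (vertical axis, per 0.5 point bin) by the difference in mC at Recovery (points, horizontal axis), for each clone minus the bulk mean (solid) and for R1 minus R2 (dashed, count divided by 5). R1 minus R2 forms a narrow peak at 0, Cl.3 and Cl.6 lie a few points below 0, Cl.6 with a further peak lower down, and Cl.9 lies lowest, around its median of -19.8 points.

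Windows lying at least 90% in bulk HMDs (10799) had a median gap of -8.12 points, with median mC of 83.5%, 82.5% and 70.3% in the clones against 88% in each bulk population. Windows lying at least 90% in bulk PMDs (9319) had a median gap of -13.5 points, with 34.1%, 30.3% and 18.5% against 41.8% and 42%. Divided into 5 equal classes by CpG density, the windows gave median gaps of -11.5, -11.9, -11.3, -9.61 and -8.87 points from the sparsest to the densest. The 792 windows that were 20 points or more lower were mostly PMD (568, 71.7%), and 7 were HMD.

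Of those 792 windows, the 783 with every clone below both bulk populations joined into 413 blocks. The longest, chr20:6200001-7900000, holds BMP2, a bone morphogenetic protein, and HAO1, a liver oxidase, and averaged 26.2%, 22.8% and 13.1% in the clones against 44% and 43.5% in the bulk populations. There the clones were lower at Baseline too, with a gap of -9.86 points. The block chr20:14100001-15300000, which lies in MACROD2 and contains FLRT3, averaged 63.4%, 69.5% and 25.9% against 75.5% and 75.3%, with a Baseline gap of -1.48 points. The block chr2:118200001-119100000 holds EN1, a homeobox gene, and MARCO, a scavenger receptor of macrophages, and gave 54.4%, 43.5% and 35.7% against 68.8% and 68.9%. The block chr9:114700001-115600000 holds TNFSF15 and TNFSF8, cytokines of the TNF family, and TNC, the matrix protein tenascin C. It gave 56.8%, 62.5% and 25.1% against 72.6% and 72.8%. At chr7:46200001-47000000, which holds no protein-coding gene, nearly all of the gap came from Cl.9, at 26.9% against 82.6% and 80.9% in Cl.3 and Cl.6 and 85.2% and 85.5% in the bulk populations.

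The named windows, the 5 with the greatest gap in each direction and at most 1 per chromosome, did not pass the adjusted threshold in edgeR on the 5 Recovery libraries. With all 15 libraries those on chromosomes 19 and 12 passed (edgeR adjusted p = 0.0477 each), and without Cl.9 8 of the 10 passed (edgeR adjusted p from 0.00479 to 0.0138). chr19:23300001-23400000, over ZNF91, gave 61.8%, 44.4% and 28.6% in Cl.3, Cl.6 and Cl.9 against 77.4% and 77.1% in R1 and R2, a gap of -32.3 points ± 9.59 (SE). chr12:115200001-115300000 gave 56.6%, 36.1% and 24.8% against 71.2% in each bulk population, a gap of -32.1 ± 9.31 (SE). In both of them the clones stood in the order Cl.3, Cl.6, Cl.9 and Cl.3 came nearest to the bulk level. chr15:83900001-84000000, within ADAMTSL3, was, of the 5 lower windows, that in which the clones lay closest together, at 34.6%, 28.4% and 27.6% against 60.8% and 61.4% (-30.9 ± 2.23, SE). chr11:85100001-85200000, within DLG2, gave 48.3%, 39% and 28.4% against 68.2% and 67.5%. chr2:90400001-90500000 rests on 11 CpGs beside the centromere, with 57.4%, 49.7% and 41.2% against 80.7% and 77.6%. At Baseline every clone was below both bulk populations in the windows on chromosomes 19, 12 and 11, with gaps of -12, -9.02 and -5.27 points. In those on chromosomes 15 and 2 the groups overlapped, with gaps of -10.2 and -1.47 points.

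The 43 windows with every clone above both bulk populations lay on 5 chromosomes, 25 on chromosome 6, 6 on chromosome 5, 5 on chromosome 1, 4 on chromosome 11 and 3 on chromosome 2. Cl.3 and Cl.6 were both above both bulk populations in 507 windows (1.79%). Leaving out any clone can only keep or raise such a number, and the other pairs of clones were not counted. All 43 had every clone above both bulk populations at Baseline as well, with a median gap of 20.7 points there and 13.3 points at Recovery, and 41 of them lay in bulk PMDs. The greatest gap was at chr6:126900001-127000000, with 76.9%, 76.3% and 65.3% in the clones against 53.8% and 54.7%. It lies in the block chr6:126800001-127200000, which reaches RSPO3, which encodes a Wnt agonist. chr5:118100001-118200000 gave 75.9%, 75.6% and 58.4% against 51.4% and 52.3%. At chr11:106600001-106700000, which overlaps the 3' end of GUCY1A2, Cl.3 stood at 77.9%, while Cl.6 (48.5%) and Cl.9 (56.2%) were nearer to R1 and R2 (47.8% and 47.3%). At chr1:69300001-69400000 it was Cl.3, at 41.9%, that lay next to the bulk populations (40.8% and 40.3%), below Cl.6 (72.3%) and Cl.9 (58.4%). chr2:209000001-209100000 gave 73.7%, 71.2% and 55.6% against 52.3% and 51.9%.

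Promoters, many of which are CpG islands that stay unmethylated, had every clone below both bulk populations more often where they were methylated. Of 18002 promoters of protein-coding genes, 8136 (45.2%) had every clone below both bulk populations and 556 (3.09%) had every clone above. At Baseline the shares were 3.96% and 19.1%, so that promoters tended to be higher in the clones in the cultures without doxycycline. edgeR called 774 promoters lower in the clones (4.3%) and 3 higher (0.0167%) at an adjusted p under 0.05. These calls depended on the fit, as limma called 0 in either direction, with 4377 lower and 201 higher at an unadjusted p under 0.05. edgeR on all 15 libraries also called 0 in either direction, with 4306 lower and 50 higher at an unadjusted p under 0.05. Without R1 edgeR called 0 lower and 0 higher, without R2 1 lower and 0 higher, without Cl.3 2368 and 17, without Cl.6 183 and 3, and without Cl.9 1721 and 44.

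By level, 202 of the 7031 promoters under 20% mC, 258 of the 7575 between 20% and 80% and 314 of the 3396 above 80% were called lower. Every clone was below both bulk populations in 25.5%, 50% and 75.2% of these classes, and above both in 6.43%, 1.36% and 0.0294%. The classes were cut on the mean of the 5 libraries, and promoters near 0% have little room to be lower. Promoters called lower had a median of 89.9% in the bulk populations and 65.2% in the clones, and a median gap of -16.5 points, against -4.54 points over all promoters tested. Of the 774, 85 were also below and 67 were above both bulk populations in every clone at Baseline. In the fit with the population as a block, the gap between Baseline and Recovery fell at 3511 of 17753 promoters (19.8%) and rose at 3 (0.0169%). By limma with the block 1565 fell and 0 rose, without the block 0 were called either way, and without R1 or R2 1 fell.

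The 12 named promoters with the greatest lower gap among those called rest on few CpGs. Each held 5 to 13 with 5 reads or more in all 5 Recovery libraries. The GGT5 promoter (chr22:24245008-24246108), of a gamma-glutamyltransferase that acts on leukotriene C4, was at 53.6%, 10.9% and 58.1% in Cl.3, Cl.6 and Cl.9 against 93% and 89.7% in R1 and R2. Its gap was -50.5 points ± 15.1 (SE, edgeR adjusted p = 0.002168), and Cl.6 was the lowest clone. The GBP7 promoter (chr1:89175909-89177009), of an interferon-induced guanylate-binding protein, was at 63.6%, 75.6% and 17.1% against 92.3% and 94.6% (-41.3 ± 17.9, SE, edgeR adjusted p = 0.007524). Here Cl.9 stood far below the other clones. The CpGs printed above for both genes lie in these promoters and were chosen for their gap. Their order of clones against bulk cells was therefore fixed by that choice.

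The CDX4 promoter (chrX:73446053-73447153), of a caudal-type homeobox gene, was, of these 12 promoters, the most even among the clones, at 18.2%, 16.9% and 18.3% against 54.2% and 59.5% (-39 ± 2.68, SE, edgeR adjusted p = 0.03204). The MYH8 promoter, of the perinatal skeletal muscle myosin, was at 47.9%, 37.3% and 32.6% against 81.4% and 75.9%. The DCD promoter, of the sweat peptide dermcidin, was at 50%, 24.2% and 35% against 75.8% and 77.8%. In the latter Cl.6 was again the lowest clone. The ADAMDEC1 promoter, of a metalloprotease-like protein of the gut, was at 54.4%, 45.1% and 28.8% against 80.6% and 81.7%. The OLFML1 promoter was at 43.9%, 45.8% and 24.7% against 75.8% and 76.4%, and the C19orf81 promoter at 46.3%, 38.4% and 28% against 78.8% and 74.7%.

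ALG1L2, NOMO1, HNRNPCL1 and IFNA7 belong to families with near-identical copies, and their reads may be split between copies, so their values are uncertain. The ALG1L2 promoter was at 80%, 46.2% and 13.6% against 95% and 89.2%, and the NOMO1 promoter at 37.1%, 32.7% and 22.6% against 78.3% and 72%. The HNRNPCL1 promoter was at 58.1%, 49.4% and 24.1% against 82% and 83.6%. The promoter of IFNA7, a type I interferon, was at 68.8%, 54.4% and 36% against 90.7% in each bulk population. In these 4 promoters Cl.3 was the highest and Cl.9 the lowest clone.

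Most of the promoters named as lower were also lower in the clones at Baseline, by less. At Baseline every clone lay below both bulk populations at MYH8, CDX4, ADAMDEC1, HNRNPCL1, GBP7, GGT5, OLFML1 and IFNA7, with gaps from -15.6 (MYH8) to -2.88 points (IFNA7). The groups overlapped at DCD, ALG1L2 and NOMO1, with gaps of -16.8, -7.29 and -2.58 points, and at C19orf81, where the Baseline gap was 12.4 points.

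Of the 3 promoters called higher, 1 had a gap of 10 points or more. The ENAH promoter (chr1:225653042-225654142, 65 CpGs), of an actin regulator of the Ena/VASP family, was at 44.9%, 51.2% and 33.5% against 22.4% and 19.7% (22.1 ± 5.34, SE, edgeR adjusted p = 0.02776). At Baseline its gap was 9.11 points. The others, of AGPAT3, an acyltransferase of phospholipid synthesis, and CDC37, a cochaperone of HSP90, were nearly unmethylated everywhere. AGPAT3 had 3, 2 and 10 methylated reads of 308, 346 and 861 in the clones and 0 of 487 and 445 in the bulk populations, which allow up to 0.616% and 0.674%. CDC37 had 1, 11 and 5 of 533, 885 and 1303 against 0 of 1020 and 937, which allow up to 0.294% and 0.32%. The mean in the clones was 0.905% and 0.605%, above those limits, although 1 clone lay below them in each promoter. At Baseline their gaps were larger, at 1.21 and 1.14 points.

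Of the promoters that were higher without passing the threshold, that of GALNT3, an enzyme that starts mucin-type O-glycosylation, gave 42.7%, 38.1% and 38.8% against 16.5% and 19.9%, and its Baseline gap was 20.4 points. Those of GADL1, SNORC and NMRAL1 had gaps of 14.3, 13 and 12.7 points at Recovery and 15.2, 13.7 and 13.9 points at Baseline. The promoter of GFRAL, the receptor of GDF15, gave 52.7%, 53.3% and 53.9% against 41.4% and 29.5%, with a Baseline gap of 37.1 points. The promoters of DNAH12, an axonemal dynein, and MGST1, a microsomal glutathione transferase, had gaps of 18.2 and 13.2 points, against 18.3 and 17.4 points at Baseline. The TAP2 promoter, of a peptide transporter of antigen presentation, gave 38%, 35.1% and 28.3% against 26% and 16.7%, with a Baseline gap of 7.81 points.

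**Figure D4:**
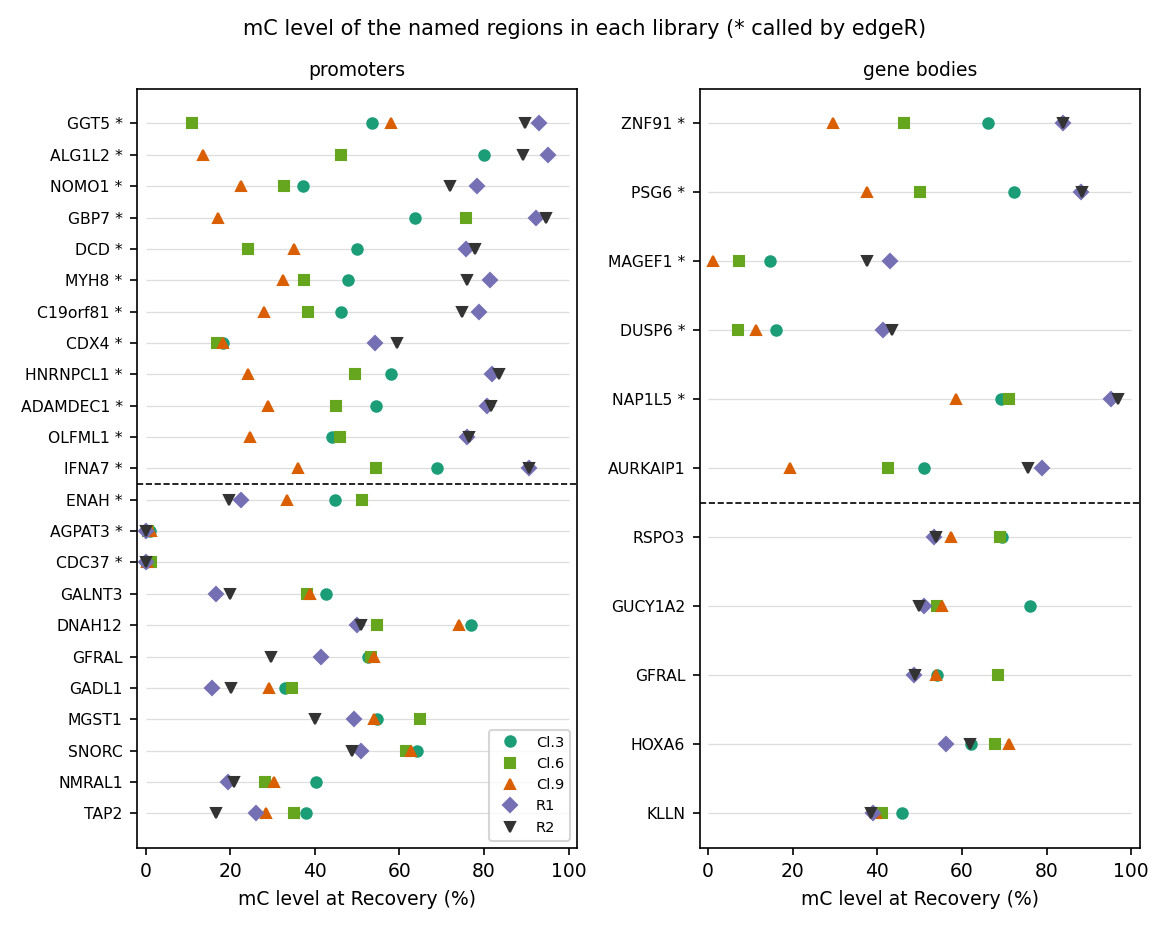
mC at Recovery (%, horizontal axis) of the named promoters (left) and gene bodies (right), 1 symbol per library, with those lower in the clones above the dashed line, those higher below it, and an asterisk on those called by edgeR. R1 and R2 lie close together in most regions, while the clones spread out, for example from 10.9% to 58.1% at the GGT5 promoter.

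Gene bodies, taken to run up to the 3' end from a point 1000 bp inside the gene, resembled the windows. Of 18711, 16765 (89.6%) had every clone below both bulk populations and 14 (0.0748%) every clone above, and the median gap was -9.13 points. edgeR called 5 lower (0.0267%) and 0 higher (0%), with 8598 lower and 0 higher at an unadjusted p under 0.05. limma called 5884 lower and 2 higher, edgeR on all 15 libraries 9101 lower, and edgeR without Cl.9 15174 lower and 62 higher. Without Cl.3 14 were called lower, and without Cl.6, R1 or R2 none were.

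All 5 called bodies had an edgeR adjusted p of 0.02239. ZNF91 (chr19:23304991-23394471) encodes a KRAB zinc finger protein known to repress SVA retrotransposons, and it lies in a cluster of related genes. Its body was at 66%, 46.4% and 29.6% against 83.8% and 83.9%, a gap of -36.5 points ± 10.5 (SE), against -14.4 points at Baseline. PSG6 (chr19:42902086-42918563), a pregnancy-specific glycoprotein gene of a family of near-identical copies, was at 72.2%, 50.1% and 37.4% against 88.2% and 88.4% (-35 ± 10.2, SE). Both showed the order Cl.3, Cl.6, Cl.9, and the values of both are uncertain where reads are shared between copies.

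DUSP6 (chr12:89347235-89351501) encodes a phosphatase that switches off ERK. Its body was at 16.1%, 7% and 11.2% in the clones against 41.3% and 43.4% (-30.9 ± 2.83, SE), where the Baseline values overlapped, at 47.4%, 30.9% and 41.6% against 35.7% and 42%. At the end of doxycycline it was at 13.5%, 6.64% and 10% in the clones and at 10.6% and 11.7% in the bulk populations. The clones thus stood near their values at the end of doxycycline and the bulk populations near their Baseline values. MAGEF1 (10 CpGs), of the MAGE family, was at 14.6%, 7.22% and 1.13% against 43.1% and 37.5%, where it was at 17.8%, 7.05% and 2.2% against 6.48% and 7.01% on doxycycline. NAP1L5 (9 CpGs), an imprinted retrogene, was at 69.1%, 71.2% and 58.7% against 95.3% and 96.9%. AURKAIP1 (31 CpGs) had the greatest gap of the bodies named here, -39.6 points, and did not pass the threshold, with 51.1%, 42.4% and 19.3% against 79% and 75.5% (edgeR adjusted p = 0.07993).

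Of the bodies with every clone above both bulk populations, edgeR on the 5 libraries called 0. RSPO3 gave 69.4%, 68.9% and 57.4% against 53.3% and 53.9%, GUCY1A2, a subunit of soluble guanylate cyclase, 76%, 54% and 55.2% against 51.1% and 49.8%, and GFRAL 54.2%, 68.6% and 53.8% against 48.6% and 48.8%. In these 3 the Baseline gap was 20.5, 21 and 18.9 points. HOXA6 gave 62.1%, 67.8% and 71% against 56.2% and 62%, so that Cl.9 was the highest library. KLLN gave 45.7%, 41% and 39.7% against 38.9% and 38.5%.

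Promoters were next read by gene lists. Each was placed at the outermost 5' end annotated for its gene, which need not be the start site used in these cells. Over all promoters tested, 4.3% were called lower, 45.2% had every clone below both bulk populations, 3.09% had every clone above, and the median gap was -4.54 points. Among promoters under 20% mC, 6.43% had every clone above. Of the HOX genes, which set position along the body axis, 4 of 36 were called lower, 16 had every clone below and 2 every clone above. HOXC6 was at 65.4%, 68.9% and 42.4% against 87.2% and 86.9% (-28.1 ± 8.32, SE, edgeR adjusted p = 0.009413), and HOXB5 was at 85.5%, 71.7% and 44% against 91.6% and 86.8%. HOXA3 gave 26.3%, 33.6% and 87.6% against 30.1% and 26.9%, so that Cl.9 alone was high, and its Baseline gap was 37 points.

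Of the olfactory receptors, active mainly in the nasal epithelium, 11 of 222 were called lower and 149 had every clone below, with a median gap of -13.7 points. OR2A5 was at 53.5%, 56.9% and 42.7% against 83.6% and 89%, OR5A1 at 64.7%, 68.2% and 25.2% against 87.3% and 86.1%, and OR10H4 at 66.7%, 65.2% and 33.5% against 88.3% and 89.2%. All 3 were called, and Cl.9 was the lowest in each.

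Of 45 interferon and double-stranded RNA response genes, 3 were called lower and 28 had every clone below (median gap -6.53 points). OAS1, an antiviral oligoadenylate synthetase, was at 86.4%, 68.8% and 60.5% against 96.2% and 89.1% (edgeR adjusted p = 0.04719). IFNB1, interferon beta, gave 53.6%, 66% and 50.7% against 81.4% and 80.3% without passing the threshold. Clustered protocadherins, cell adhesion genes of neurons, had 0 of 52 called and 16 with every clone below (median gap -11 points).

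Of the genes often found methylated in colorectal cancer, 0 of 40 were called and 23 had every clone below (median gap -9.1 points). Among them TIMP3, an inhibitor of matrix metalloproteases, gave 68.2%, 54.8% and 53.4% against 84.4% and 85.8%, and MGMT, which repairs alkylated guanine, gave 63.4%, 75.1% and 56% against 81.9% and 87.2%. Secreted Wnt antagonists had 0 of 12 called and 8 with every clone below (median gap -10.8 points), and SFRP2 gave 75.4%, 74.2% and 41.2% against 84.4% and 85.1%. Cancer-testis and germline genes had 0 of 32 called and 19 with every clone below (median gap -6.54 points), with MAGEA4 at 74%, 44.4% and 27.9% against 81.1% and 82.7%. Imprinted genes had 0 of 34 called and 16 with every clone below (median gap -6.71 points).

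Zinc finger genes of chromosome 19 had 3 of 239 promoters called and 104 with every clone below (median gap -5.29 points). ZNF582 gave 61.7%, 56.4% and 30.1% against 78.6% and 82%, without passing the threshold. Cytosolic ribosomal protein genes, mostly unmethylated, had 2 of 80 called, 22 with every clone below and 8 with every clone above (median gap -1.1 points). Genes that write, erase or maintain DNA methylation had 1 of 32 called, 16 with every clone below and 3 above (median gap -2.06 points). The DNMT1 promoter, of the gene the hairpin of the bulk populations targeted, gave 43.1%, 46.7% and 33.3% against 61.9% and 56.3%. The UHRF1 promoter, chosen after its values were seen, gave 88%, 86% and 79.9% against 94.5% and 92.3%. Neither passed the threshold. Both values are those of the stretch at the annotated 5' end and may not cover the start site in use.

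Of the colon epithelium markers, 1 of 26 was called lower and 12 had every clone below (median gap -8.3 points). CDX1, an intestinal homeobox gene, was at 79%, 74.4% and 70.8% against 95.8% and 96.4% (-21.4 ± 2.39, SE, edgeR adjusted p = 0.02395). The KRT8 promoter gave 26.2%, 21.5% and 15.3% against 36.1% and 45.9%, every clone below, without passing the threshold. The promoters of EPCAM, CDH1 and ELF3 were chosen after their values were seen, and in each the groups overlapped. That of EPCAM, the epithelial adhesion molecule, gave 23.6%, 9.07% and 14.5% against 18% and 20.7%. That of CDH1, E-cadherin, gave 43.5%, 37.5% and 30.7% against 44.5% and 36.3%. ELF3, an epithelial transcription factor, gave 65.5%, 45.6% and 11.7% against 30.4% and 27.4%, a wider spread among the clones than between clones and bulk cells. Markers of other cell types had 1 of 36 called and 28 with every clone below (median gap -12.6 points), and ITGAM, an integrin of myeloid cells, was at 73.6%, 70.9% and 65.1% against 92.1% and 89.9% (edgeR adjusted p = 0.04381).

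The authors called domains in each library on its own, and the HMD lists separated Cl.9 from the other libraries more than clones from bulk cells. R1 and R2 shared 1423.04 Mb of HMD. Of this length Cl.3 still called 93.1% HMD, Cl.6 90.6% and Cl.9 35.6% (73.1% ± 32.5, SD, n = 3), and the mean without Cl.9 was 91.8%. At Baseline all 5 populations called 99.1% to 99.5% of it HMD. At Recovery Cl.9 called 42% of it PMD, and part of it fell in no class. Among bases outside its other domain calls, the paper kept a domain as HMD only where its mean mC was 80% or more. At CpGs in the shared HMD length mean mC was 87.2%, 85.8% and 75.3% in the clones. Whether that limit had a part in the HMD share of Cl.9 was not tested. Each list held 1394.97 Mb (Cl.3), 1369.19 Mb (Cl.6) and 510.4 Mb (Cl.9) of HMD against 1469.95 and 1468.96 Mb in R1 and R2. The Jaccard index of the HMD lists, the shared length over the joint length, was 0.939 between R1 and R2, 0.851 to 0.885 between Cl.3 or Cl.6 and a bulk population, and 0.345 between Cl.9 and either of them.

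Within the 1263.2 Mb that both bulk lists called PMD, calls of unmethylated regions (UMRs) took up 38.9% in Cl.3, 46.4% in Cl.6 and 71.5% in Cl.9, against 25.7% and 26.1% in R1 and R2. The name is that of the call and does not mean that all CpGs in it were unmethylated. Of the CpGs in the bulk PMD length, 33.2%, 35.3% and 49.4% were below 20% mC in the clones, against 24.7% in each bulk population. At Baseline UMRs took up 21.9% and 22% in Cl.3 and Cl.6 and 31.8% in Cl.9, against 24.8% and 24.7%. Low-methylated regions (LMRs) took up 15.1%, 11.8% and 8.29% against 18.3% and 18%. PMD calls covered 45.4%, 44.1% and 39.2% of it in the clones. Classes can overlap in these lists, since LMRs and UMRs may lie inside PMDs, and at Baseline Cl.9 called only 45.2% of it PMD, where Cl.3 and Cl.6 called 77% and 85.6% and the bulk populations 97.1% and 96.4%.

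**Figure D5:**
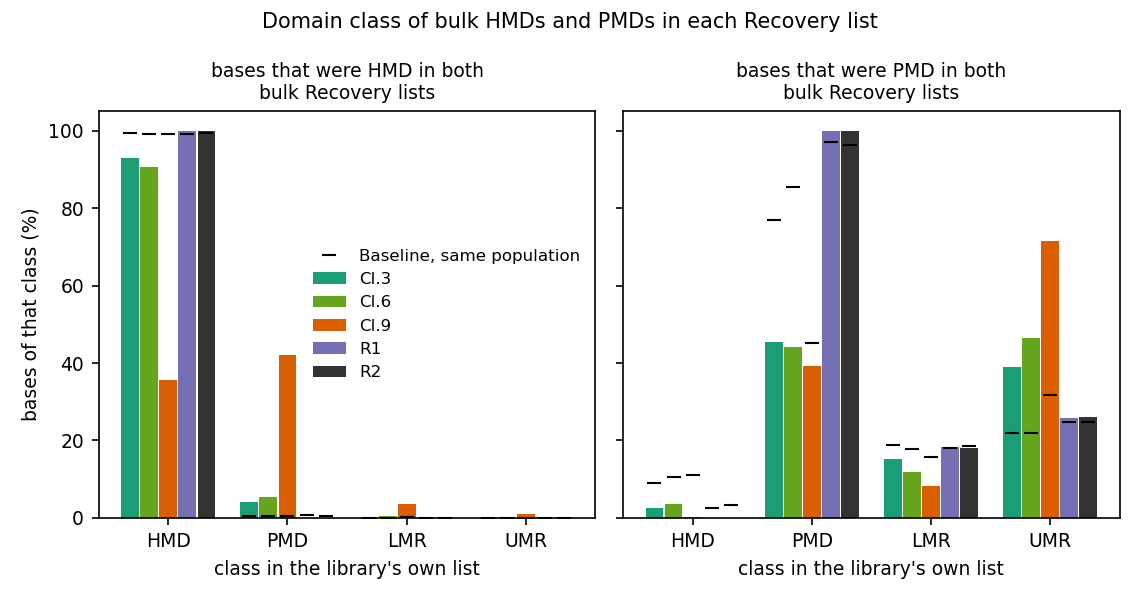
Share (%, vertical axis) of the bases that both bulk Recovery lists called HMD (left) or PMD (right) which each library's own Recovery list called HMD, PMD, LMR or UMR, as bars, with black ticks for the same population at Baseline. Cl.9 keeps 35.6% of the bulk HMD length where the other clones keep 93.1% and 90.6%, and UMR calls take up 38.9% to 71.5% of the bulk PMD length in the clones. R1 and R2 stand at 100% in the class that defines each panel by construction.

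Bases that were HMD in both bulk lists and PMD in all 3 clones came to 26.9 Mb in 3987 stretches, which held the 5' ends of 143 protein-coding genes. This total was 74.2 Mb without Cl.3, 57 Mb without Cl.6 and 41.2 Mb without R1. Their mean mC was 77.2%, 74.9% and 60.3% in the clones against 86.8% and 86.9% in the bulk populations, and at Baseline 88%, 89% and 86% against 88.3% and 88.4%. The longest stretch, 77.3 kb at chr2:221420409-221497671, lies in EPHA4, an ephrin receptor tyrosine kinase, and stood at 74.5%, 67.9% and 69.7% against 86.8% and 86.3%. Stretches of 77 kb on chromosome 7 (chr7:76855493-76932521) and 72.1 kb on chromosome 14 (chr14:58876304-58948413) hold no protein-coding gene. In the latter Cl.9 was at 46.1% and the other clones at 77.7% and 75.8%.

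The opposite class, PMD in both bulk lists and HMD in all 3 clones, came to 0.132 Mb and no gene's 5' end. Its mean mC was no higher in the clones (86.4%, 84% and 76%) than in the bulk populations (86.6% and 87%). In the longest stretch, 23.5 kb in RASSF8, mC was 85.4%, 87.9% and 77.1% against 80.1% and 81.2%, so that Cl.9 lay below both bulk populations although its list called the bases HMD. The same held for 7.1 kb in MYOF, where all 3 clones (92.2%, 90.1% and 84.9%) lay below R1 and R2 (93.2% and 93.9%). Without Cl.9 the class came to 14.3 Mb, and without Cl.3, Cl.6, R1 or R2 to 0.568, 0.262, 0.403 and 0.286 Mb.

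Bases that were UMR in all 3 clones and in neither bulk list came to 111.4 Mb in 47218 stretches, with mean mC of 27%, 23.7% and 14.3% against 38.9% and 39.1%. Without Cl.3 the total was 224 Mb. The 4 longest lie beside centromeres and hold 0 to 6 CpGs, so the longest with at least 50 CpGs were taken instead, a choice made after the values were seen. They were 37.5 kb at chr6:66742119-66779578, 33.1 kb at chr20:6534355-6567454, 30.2 kb at chr20:54399421-54429627 and 28.1 kb at chr1:49882174-49910290. The stretch at chr20:6534355-6567454, inside the BMP2 and HAO1 block described above, stood at 21.8%, 21.7% and 11.5% against 43.8% and 43.6%. The stretch at chr20:54399421-54429627 stood at 19.4%, 20.6% and 17.6% against 45.5% in each bulk population, where Cl.9 was at 49.6% at Baseline and Cl.3 and Cl.6 at 26% and 28.8%. The stretch on chromosome 1 lies in AGBL4, a cytosolic carboxypeptidase gene, with 24%, 19.8% and 12.2% against 34.5% and 31.8%.

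Bases that were UMR in both bulk lists and in no clone came to 0.425 Mb in 363 stretches, and the 4 longest all lie on chromosome 6. The total was 3.59 Mb without Cl.9, 1.39 Mb without Cl.3, 0.668 Mb without Cl.6 and 1.25 and 1.31 Mb without R1 and R2. The longest, 19.2 kb at chr6:97732307-97751462, stood at 46.2%, 51.6% and 47.7% against 27.2% and 25.7%. At Baseline it was also higher in the clones, with 54.2%, 55.1% and 66.8% against 30.2% and 28.1%. Stretches of 13.8 and 13.1 kb (chr6:23125855-23139641 and chr6:97990452-98003594) hold no protein-coding gene.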

How the data were processed

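Whole-genome bisulfite libraries of HCT116 were read from the processed files. The authors used the Meth10X pipeline and hg38 for alignment, according to the methods and the labels, and they deposited raw counts per CpG and library, the reads that kept C and all reads, without a coverage filter. The handling of read duplicates and of variants is not given in the sources used here. Of the positions, 29175448 on chromosomes 1 to 22 and X were used, and all of them were checked to be CpGs of hg38. The authors also deposited 1 domain list per library, with PMDs, LMRs and UMRs called by MethylSeekR and HMDs taken from the remaining bases by their mean mC (the submitters' processing notes name bedtools 2.25.0). The settings given to MethylSeekR were not stated. Domain coordinates were read as BED and are printed counted from 1.

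Groups were taken from the sample titles. mC was methylated reads over reads at CpGs with 5 reads or more in all 5 Recovery libraries, and Baseline values used CpGs with 5 reads or more in the 10 Baseline and Recovery libraries (bins and single CpGs) or in all 15 (means by class). Baseline values of windows, promoters and gene bodies used the CpGs chosen at Recovery, without a read minimum of their own. Numbers of CpGs given for regions and stretches count only CpGs with 5 reads or more in all 5 Recovery libraries, unless another minimum is named. Methylated and unmethylated counts were summed over 100 kb windows, promoters and bodies of protein-coding genes (GENCODE release 44) with at least 5 CpGs and 50 reads in each library. They were tested with edgeR 4.0.16 (glmQLFit and glmQLFTest with a methylation design) in R 4.3.3, on the 5 Recovery libraries, and called at a Benjamini-Hochberg adjusted p under 0.05 over all regions of a kind. The change of the gap from Baseline was fitted to all 15 libraries with the population as a block. SEs of gaps come from the SDs of both groups. The scripts were tested on simulated data. limma 3.58.1 on the log2 ratio with a pseudocount of 1, all 15 libraries in 6 groups, other filters, 25 kb windows, promoters of 500 bp on either side and leaving out each population were the alternatives. Python 3.11.15 with numpy 2.4.6, scipy 1.17.1, pandas 2.3.3 and matplotlib 3.10.9 did the rest. Where a count of methylated reads was 0, the limit given is 3 reads of the total.

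Samples were paired by population as the labels name it: libraries with the same clone or replicate name come from 1 population. Deviations from the group mean over windows correlated between Baseline and Recovery with r of 0.832, 0.754 and 0.655 in Cl.3, Cl.6 and Cl.9 and of 0.0473 in R1 and R2.

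Named promoters (12 in each direction), gene bodies (6) and windows (5, at most 1 per chromosome) are those with the greatest gap among called regions with groups that do not overlap and a depth per CpG within 3 times the median region. Where too few were called, the greatest gaps without overlap fill up and are given as values. Domains are the 4 longest stretches of a class, and of each gene list up to 3 members with the greatest gap were taken. EPCAM, CDH1, ELF3 and UHRF1 fall outside this rule and were chosen after their values were seen. Of the sequences chosen by the same rule, those of AGPAT3 and CDC37, with gaps of 1.19 and 3.03 points, are not printed. Some regions that this rule names are not reported here. The comparison, the members and the gene lists were chosen with earlier results of these data known.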

Additional observations from a re-analysis of the deposited data

Results flagged for a closer look

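The gap between clones and bulk populations was tested for a change between Baseline and Recovery, and the named regions in which it changed at an adjusted p under 0.05 (edgeR, population as a block) are given here as log2 changes of the odds of methylation. Among the windows with lower values in the clones these were -1.23 at chr19:23300001-23400000, -1.40 at chr12:115200001-115300000, -1.27 at chr15:83900001-84000000, -1.86 at chr2:90400001-90500000 and -1.42 at chr11:85100001-85200000. At chr2:209000001-209100000, where the clones were higher at both stages, the gap narrowed by -0.74. The named regions were chosen for their Recovery gap, and the same Recovery counts enter this test. A fall in those named as lower was thus favoured by the choice. Over all regions fitted, the gap fell in 89% of windows and at 19.8% of promoters, and without the block 0 of either were called.

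Among the promoters the changes were -2.79 for GGT5, -2.73 for GBP7, -3.44 for C19orf81, -1.93 for CDX4, -1.82 for HNRNPCL1 and -1.96 for OLFML1. Among the gene bodies they were -1.35 for ZNF91, -2.24 for PSG6, -3.89 for MAGEF1, -2.64 for DUSP6, -2.53 for NAP1L5 and -3.27 for AURKAIP1. Over all gene bodies fitted, the gap fell in 15775 of 18651 and rose in 0. For gene bodies this fit was not repeated without the block or without a population.

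In 4 regions the gap rose. The promoter of PEG10, an imprinted gene derived from a retrotransposon, gave 1.39, with 41.8%, 47.8% and 20.2% in Cl.3, Cl.6 and Cl.9 against 30% and 16.3% in R1 and R2 and a Baseline gap of -6.62 points. The PINX1 promoter gave 1.24 and 1.17 for its pair of gene entries, which overlap, with gaps of 3.66 and 3.59 points at Recovery against -5.58 at Baseline. The window chr1:121100001-121200000, with 18 CpGs near the centromere, gave 1.55. In all 4 regions the groups overlapped at Recovery.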

How the results depend on the processing

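Of 138 counts, totals, mean gaps and shares recomputed under alternatives, 69 stayed within the bounds set (1.5 times for a count or a total in Mb, the replicate spread for a value in points or percent) and 69 did not. Of 317 values of named regions, 212 kept their direction and side of the threshold, 84 no longer passed it, 21 newly passed it and none turned. The cause was not tested.

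Windows lower in the clones numbered 0, against 1 with limma, 5 with all 15 libraries and 1 of 25 kb. Promoters lower and higher numbered 774 and 3, against 0 and 0 with limma, 0 and 0 with all 15 libraries and 184 and 1 with at least 10 CpGs and 200 reads. With 500 bp on either side 78 were lower, and with a gap of at least 10 points 1 was higher. Gene bodies lower and higher numbered 5 and 0, against 5884 and 2 with limma, and lower ones 9101 with all 15 libraries, 3 with at least 10 CpGs and 200 reads and 12 without a filter.

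With the replicate block the gap fell in 25222 windows and rose in 1, and it fell at 3511 promoters and rose at 3. With no replicate block the counts were 0 and 0 for windows and 0 and 0 for promoters. limma with the replicate block gave 2 windows that rose and 1565 promoters that fell and 0 that rose.

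Leaving out each population in turn gave 0 to 22571 windows lower and 0 to 253 higher, 0 to 2368 promoters lower and 0 to 44 higher, and 0 to 15174 gene bodies lower and 0 to 62 higher. The gap fell in 0 to 27974 windows and rose in 0 to 1, and it fell at 1 to 6128 promoters and rose at 0 to 5. The mean gap ran from -13.1 to -6.53 points, the density difference from -6.41 to -4.14 points and the bulk HMD kept from 63.1% to 91.8%. HMD in bulk cells and PMD in clones came to 27.6 to 74.2 Mb, the reverse to 0.262 to 14.3 Mb, UMR in clones only to 114 to 224 Mb and UMR in bulk cells only to 0.668 to 3.59 Mb.

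With 2 bulk populations, leaving out R1 or R2 leaves a lone library that is assumed to vary like the clones. Promoters with few CpGs rest on few reads, and domain classes were called in each library on its own.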
